A study of Mus musculus with 8 samples.

Results

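The collagen chain genes encode the polypeptides that assemble into collagens, the main structural proteins of the extracellular matrix. They were taken here as every gene whose symbol is Col, a type number, the letter a and a chain number, on a probe set annotated with that 1 symbol. This gave 68 probe sets and 42 genes, of 17097 genes with a single-symbol probe set, and the probe set that was brightest on average stood for its gene. The symbols Col6a6, Col21a1 and Col28a1 had no such probe set and were not analysed here. The cells came from mouse embryos with a Mesp1-rtTA transgene and a Teto-H2B-GFP reporter, a genotype that all groups shared. Mesp1 marks the earliest mesoderm, and a nuclear GFP reported the activity of the Mesp1-driven transactivator. The 4 groups were GFP+ and GFP- cells at embryonic day (E) 6.5 and E7.5, each with 2 arrays of amplified RNA from 50 sorted living cells, labelled as biological replicates 1 and 2. GFP- cells were sorted living embryo cells without the reporter signal, with no further identity given. Since H2B-GFP is a stable protein, GFP+ cells can include cells that have stopped expressing Mesp1. The labels used here gave neither the mouse strain nor the time under inducer, and did not say whether cells of several embryos were pooled.

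Collagen chains wind around each other into a helix that needs hydroxylated proline, made by enzymes of the endoplasmic reticulum. Fibrillar collagens (types I, II, III, V, XI, XXIV and XXVII) form the fibres of connective tissue, and type V nucleates the fibrils of type I. Type IV collagen forms the sheet-like network of basement membranes, the layer that separates epiblast from visceral endoderm and that cells break through when they leave the primitive streak. Other classes decorate fibrils (type IX and its relatives), form beaded filaments (type VI), cross the cell membrane (types XIII, XVII, XXIII and XXV), or join collagen to proteoglycan chains in basement membranes (types XV and XVIII, the multiplexins).

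All values are log2 expression values, so a difference of 1 is a doubling. The arrays measured 45141 probe sets. Array medians lay between 4.197 and 4.233 for the replicate 1 arrays and between 4.54 and 4.59 for the replicate 2 arrays. Many differences are therefore also given "by replicate", that is, within the replicate 1 arrays and then within the replicate 2 arrays. Mesp1 lay at 9.75 and 10.03 in GFP+ and at 5.64 and 6.26 in GFP- cells at E6.5, and at 8.75 and 8.65 against 7.76 and 8.06 at E7.5 (GFP+ above GFP- on every array). The mean of 6 nascent mesoderm markers was 9.24 and 9.34 in GFP+ against 5.82 and 6.65 in GFP- cells at E6.5, and 8.52 and 8.46 against 7.17 and 7.32 at E7.5. The files gave no detection call, so the median of all deposited values, 4.38, served as the background mark. A second mark of 4.26 was the 95th percentile of 87 probe sets of olfactory, vomeronasal and taste receptor genes. With 2 arrays a group, their number limits the precision. The p-values cover only the spread between these arrays. In such bulk samples fewer cells that express a gene and less RNA per cell cannot be told apart.

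Of the 42 collagen genes, 20 lay at or below the background mark in all 4 group means, 7 lay above it in 1 to 3 groups and 15 in all 4. The share above it in at least 1 group was 52.4%, against 66.5% of all genes. The mark was above the median of each replicate 1 array and below that of each replicate 2 array. A group mean can therefore pass it on the replicate 2 array alone, as Col25a1 did in all 4 groups (4.12 to 4.23 on its replicate 1 arrays). With the receptor mark 18 were near background. The near-background set held 6 of 11 fibrillar genes (Col1a2, Col3a1, Col5a3, Col11a1, Col11a2, Col24a1) and 4 of 6 type IV genes (Col4a3, Col4a4, Col4a5, Col4a6). It also held 3 of 5 type VI genes (Col6a3, Col6a4, Col6a5), and 4 of 9 fibril-associated genes (Col9a2, Col12a1, Col19a1, Col20a1). The others in it were Col8a2 and Col10a1 of the 3 short-chain genes and Col15a1 of the 2 multiplexins. Col15a1 was above the mark on all its replicate 2 arrays (4.59 to 4.94), though in no group mean. Array values of these 20 genes ran from 2.78 to 4.94, and no group difference within a stage or a fraction exceeded 0.59 in size. A single probe set stood for Col1a2, the partner chain of Col1a1 in type I collagen. It lay between 2.82 and 3.40 on every array. With 1 probe set, absent Col1a2 RNA cannot be told from a probe set that fails to detect it.

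**Figure D1:**
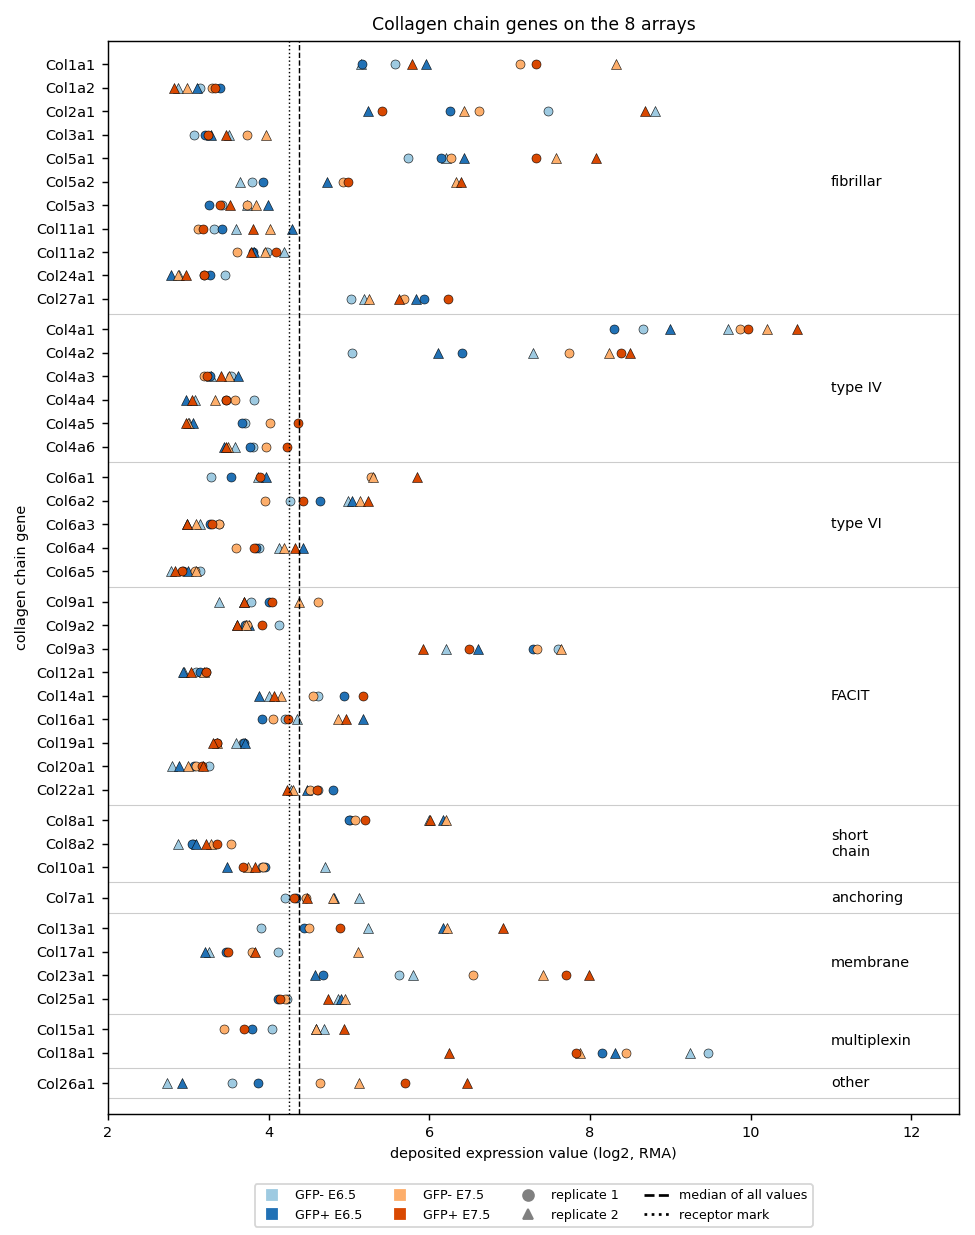
Log2 expression of the 42 collagen chain genes, by class, on each of the 8 arrays (colour for group, circle for replicate 1, triangle for replicate 2). The dashed line is the median of all deposited values (4.38) and the dotted line the receptor mark (4.26). 20 genes have no group mean above the dashed line, while Col4a1 lies above 8 on every array.

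The stage comparison asked how collagen genes differed between the onset of gastrulation and a day later. Collagen genes with higher values at E7.5 came from the type IV, fibrillar, type VI, membrane-spanning and type XXVI classes, and Col18a1 was lower in both fractions on the probe set used, but in GFP+ cells not on its other one (0.01). In GFP+ cells 6 of 42 genes (14.3%) were higher at E7.5 with arrays that did not overlap and means at least 1 apart, against 1.9% of all 17097 genes. These were Col4a1, Col4a2, Col5a1, Col5a2, Col23a1 and Col26a1. In GFP- cells the 6 genes (14.3%, against 2.47% of all genes) were Col1a1, Col4a2, Col5a2, Col6a1, Col23a1 and Col26a1. The genes that met this in both fractions, which share no arrays, were Col4a2, Col5a2, Col23a1 and Col26a1 (4 of 42, 9.52%, against 0.772% of all genes). Lower at E7.5 were Col18a1 in GFP+ cells (1 of 42, against 1.12% of all genes) and Col18a1 and Col2a1 in GFP- cells (2 of 42, against 2.06%). Col18a1 was lower in both by this measure (0.263% of all genes were). The median difference over all 42 genes was 0.05 in GFP+ and 0.13 in GFP- cells, against -0.02 and -0.01 over all genes.

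The counts moved with single arrays, and an arm of 1 array makes overlap rarer for every gene. Higher in GFP- cells were 10 collagen genes without replicate 1 of GFP- E7.5, against 6.07% of all genes without that array. Lower in GFP+ cells were 2 without replicate 2 of GFP+ E6.5 (2.02% of all genes) or replicate 1 of GFP+ E7.5 (3.4%), and 0 without replicate 2 of GFP+ E7.5 (1.95%). Lower in GFP- cells was 1 without replicate 2 of GFP- E6.5 (3.23%) or replicate 2 of GFP- E7.5 (4.41%). The limma test was run on the 11706 genes with at least 2 of 8 arrays above the mark, of which 21 were collagen genes, with Benjamini-Hochberg adjustment over all of them. With the fractions averaged, 1 collagen gene passed at an adjusted p under 0.05, Col23a1, against 0.256% of all genes tested. Within GFP+ or GFP- cells alone limma called 0 collagen genes (0.0256% and 0.094% of all genes tested). At an unadjusted p under 0.05, limma had 5 higher and 0 lower in GFP+ cells, against 2.35% and 1.5% of all genes, and 6 higher and 0 lower in GFP- cells, against 3.45% and 3.03%. With the fractions averaged there were 8 higher and 1 lower, against 3.84% and 3.36%.

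**Figure D2:**
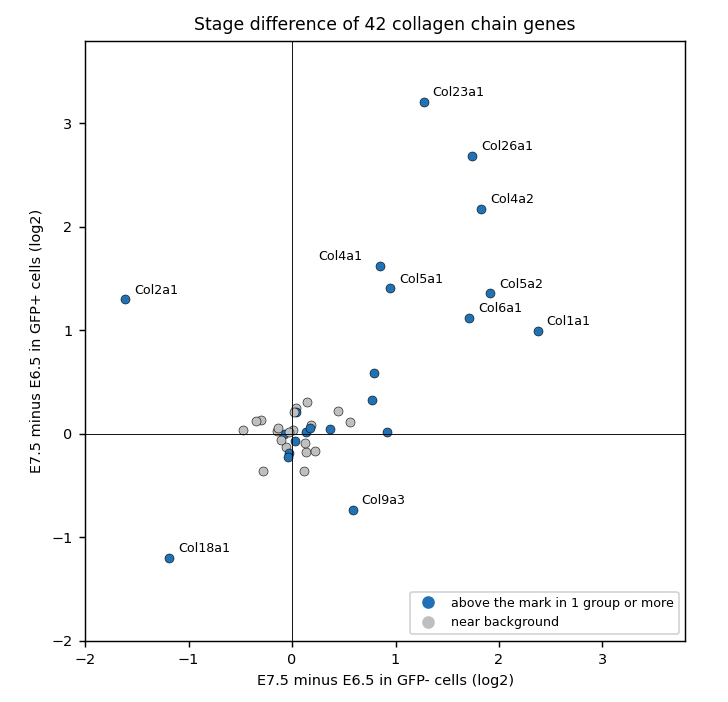
Difference between E7.5 and E6.5 (log2) of the 42 collagen chain genes in GFP- cells (x axis) and in GFP+ cells (y axis), which share no arrays; grey points are near background in every group. Col23a1, Col26a1, Col4a2 and Col5a2 lie above 1 on both axes and Col18a1, on the probe set used, below -1 on both.

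Type IV collagen of most basement membranes is built from the chains of Col4a1 and Col4a2. These genes are neighbours on opposite strands. In RefSeq (GRCm38.p6) the promoter table starts Col4a1 at chromosome 8 position 11312826 on the minus strand and Col4a2 at position 11312805 on the plus strand. Their 300-base windows (250 bases before to 50 after each start) overlap by 78 bases. The stretch from one start to the other is shown because both genes, whose values are given next, share it. By these starts each gene runs through the start of the other, so the stretch lies within both genes and not between them. It is read on the plus strand at chr8:11312801-11312830, with the 22 bases from start to start in capitals.
Col4a1/Col4a2: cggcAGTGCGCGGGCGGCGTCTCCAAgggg
The stretch holds GGGCGG 1 time. In the whole windows GGGCGG (or CCGCCC on the other strand) occurred 1 time for Col4a1 and 3 times for Col4a2, and 35.7% of the 32851 windows in the table held it. CCAAT (or ATTGG) occurred 1 time in each, and 37.4% of windows held it. These are letter matches and say nothing of binding.

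Col4a1 lay at 8.66 and 9.72 in GFP- and at 8.30 and 8.996 in GFP+ cells at E6.5. At E7.5 it lay at 9.87 and 10.21 in GFP- and at 9.97 and 10.58 in GFP+ cells. On the probe set used, all 4 E7.5 arrays were above all 4 E6.5 arrays. The stage difference was 1.63 in GFP+ cells (SE 0.46, by replicate 1.67 and 1.58, limma adjusted p = 0.784) and 0.85 in GFP- cells (SE 0.46, by replicate 1.205 and 0.49). Its other probe set gave 1.48 and 0.36, and there GFP- E7.5 replicate 1 (9.30) lay below GFP- E6.5 replicate 2 (9.48). Col4a2 lay at 5.03 and 7.29 in GFP- and at 6.41 and 6.11 in GFP+ cells at E6.5. At E7.5 it lay at 7.74 and 8.24 in GFP- and at 8.38 and 8.496 in GFP+ cells. Here too every E7.5 array was above every E6.5 array. GFP- E6.5 replicate 1 was the lowest. Between stages it differed by 2.18 in GFP+ (SE 0.67, by replicate 1.97 and 2.38, limma adjusted p = 0.929) and 1.83 in GFP- cells (SE 0.67, by replicate 2.71 and 0.95, limma adjusted p = 0.642). In GFP- cells it was 0.70 without replicate 1 of GFP- E6.5 and 2.96 without replicate 2 of GFP- E6.5. Between fractions the limma intervals of both genes included 0. GFP+ minus GFP- at E6.5 was -0.54 for Col4a1 (95% interval -1.63 to 0.54) and 0.10 for Col4a2 (-1.47 to 1.67; -1.03 without replicate 1 and 1.23 without replicate 2 of GFP- E6.5). At E7.5 it was 0.24 (-0.85 to 1.32) and 0.45 (-1.12 to 2.02), the latter with arrays that did not overlap. On the other probe set of Col4a1 it was -0.58 at E6.5 and 0.54 at E7.5, both with arrays that did not overlap. The kidney and lens chains Col4a3, Col4a4, Col4a5 and Col4a6 stayed between 2.97 and 4.37 on all arrays.

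Parietal endoderm, the extraembryonic layer that makes the thick Reichert membrane, is a rich source of type IV collagen. Of its 8 listed markers, 6 lay above the mark in at least 1 group (Pth1r, Sparc, Lamb1, Lama1, Srgn and Fst), and Thbd (3.13 to 4.21) and Plat (2.79 to 4.16) lay below it on every array. Lama1, a laminin chain gene, was higher at E7.5 by 2.92 in GFP+ and by 2.31 in GFP- cells with arrays that did not overlap, as Col4a2 was. Pth1r lay between 6.52 and 8.79 on all arrays and was higher at E7.5 by 0.58 and 0.95, while Fst differed by -0.995 and 0.05. In GFP+ and GFP- cells, Sparc differed by 0.63 and 0.34, Lamb1 by 0.20 and -0.08, and Srgn by 0.01 and -0.96. The mean of the list was 5.68 and 6.55 in GFP- and 6.37 and 6.36 in GFP+ cells at E6.5, and 6.29 and 6.79 in GFP- and 6.80 and 7.002 in GFP+ cells at E7.5. Its part in the type IV values was not tested.

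Among fibrillar genes, Col5a1 and Col5a2, the chains of type V collagen, were higher at E7.5 in both fractions, although Col5a1 in GFP- cells by less than 1. Col5a1 lay at 5.74 and 6.21 in GFP- and 6.14 and 6.44 in GFP+ cells at E6.5, and at 6.27 and 7.58 in GFP- and 7.32 and 8.07 in GFP+ cells at E7.5. In both fractions the arrays of the stages did not overlap. The stage difference was 1.41 in GFP+ (SE 0.50, by replicate 1.18 and 1.63, limma adjusted p = 1.00) and 0.95 in GFP- cells (SE 0.50, by replicate 0.53 and 1.37). Its 2 dimmer probe sets gave 0.48 and 1.13 in GFP+ cells. Col5a2 lay at 3.79 and 3.64 in GFP- and 3.93 and 4.73 in GFP+ cells at E6.5, and at 4.93 and 6.33 in GFP- and 4.99 and 6.39 in GFP+ cells at E7.5. It was therefore above the mark on 1 of 4 arrays at E6.5 and on all 4 at E7.5, and the sizes against E6.5 are uncertain. From E6.5 to E7.5 the difference was 1.36 in GFP+ (SE 0.62, by replicate 1.06 and 1.66; 0.66 without replicate 2 of GFP+ E7.5 and 2.06 without replicate 1 of GFP+ E7.5) and 1.91 in GFP- cells (SE 0.62, by replicate 1.13 and 2.69; 1.21 without replicate 2 of GFP- E7.5). Its other probe set stayed at or below 3.04 on all arrays. Col5a3 was near background. Col3a1, which lies next to Col5a2 in the genome, was also near background (3.08 to 3.97).

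Col1a1, the major chain of type I collagen, lay at 5.57 and 5.15 in GFP- and 5.17 and 5.96 in GFP+ cells at E6.5. At E7.5 it lay at 7.13 and 8.33 in GFP- cells, and at 7.33 and 5.79 in GFP+ cells. The GFP- groups did not overlap, whereas GFP+ E7.5 replicate 2 lay within the E6.5 range. E7.5 minus E6.5 was 2.37 in GFP- (SE 0.62, by replicate 1.56 and 3.18, limma adjusted p = 0.367) and 1.00 in GFP+ cells (SE 0.62, by replicate 2.17 and -0.17). Col2a1, the cartilage collagen that is also made in notochord and neural tissue, was the most variable of the fibrillar genes in GFP+ cells at E7.5, at 5.42 and 8.68. It lay at 7.48 and 8.81 in GFP- and 6.26 and 5.24 in GFP+ cells at E6.5, and at 6.62 and 6.43 in GFP- cells at E7.5. At E6.5 the fractions did not overlap, with a difference of -2.40 (SE 1.00, by replicate -1.22 and -3.57, limma adjusted p = 0.846). In GFP- cells the stage difference was -1.62 (SE 1.00, by replicate -0.86 and -2.37; -0.95 without replicate 2 of GFP- E6.5). Col27a1, a fibrillar collagen of developing cartilage, was higher in GFP+ cells by 0.77 at E6.5 (SE 0.33, by replicate 0.90 and 0.64, limma adjusted p = 0.876) and by 0.45 at E7.5 (SE 0.33). Its dimmer probe set gave 1.53 and 0.79.

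Type VI collagen needs the chains of Col6a1, Col6a2 and another chain such as that of Col6a3. Col6a1 lay at 3.28 and 3.87 in GFP- and 3.54 and 3.97 in GFP+ cells at E6.5, all below the mark. At E7.5 it lay at 5.27 and 5.30 in GFP- cells, and at 3.90 and 5.85 in GFP+ cells. The GFP- groups separated (1.71, SE 0.61, by replicate 1.99 and 1.43, limma adjusted p = 0.625), while the GFP+ groups overlapped (1.12, SE 0.61, by replicate 0.36 and 1.89). Both sizes are uncertain because E6.5 lay below the mark. Its genomic neighbour Col6a2 had group means from 4.55 to 4.84 and no difference over 0.28 in size on the probe set used. The other Col6a2 probe set gave 0.48 between fractions at E7.5 and 0.45 between stages in GFP+ cells. Col6a3 stayed between 2.98 and 3.39.

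Col9a3, a chain of the fibril-associated type IX collagen, lay at 7.60 and 6.21 in GFP- and 7.29 and 6.61 in GFP+ cells at E6.5. At E7.5 it lay at 7.34 and 7.64 in GFP- and at 6.5003 and 5.92 in GFP+ cells, which did not overlap. The GFP+ minus GFP- difference at E7.5 was -1.28 (SE 0.51, by replicate -0.84 and -1.72, limma adjusted p = 1.00), and -0.27 on its dimmer probe set. At E6.5 it was 0.04 (SE 0.51; 0.73 without replicate 1 and -0.65 without replicate 2 of GFP- E6.5). Its partner Col9a2 was near background, and Col9a1 lay above the mark only in the GFP- E7.5 mean (4.62 and 4.38 on the arrays). All other fibril-associated genes with a value above the mark (Col14a1, Col16a1, Col22a1) lay between 3.88 and 5.18.

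Col23a1, a membrane-spanning collagen that is shed from the cell surface, rose with stage. It lay at 5.62 and 5.79 in GFP- and 4.68 and 4.58 in GFP+ cells at E6.5, and at 6.55 and 7.41 in GFP- and 7.70 and 7.99 in GFP+ cells at E7.5. On the probe set used no 2 of the 4 groups overlapped, and the fraction with the higher values turned between the stages. The stage difference over both fractions was 2.24 (SE 0.25, 4.73-fold, limma adjusted p = 0.0244; by replicate 1.97 and 2.51). The call ended without any 1 array (limma adjusted p = 0.0744 to 0.132) except GFP- E7.5 replicate 1, without which it held (0.0391), while the difference stayed between 2.03 and 2.46. The mean of its 3 probe sets gave 1.84 (limma adjusted p = 0.196), and the 2 dimmer ones gave 2.22 and 1.07. Within fractions it was 3.21 in GFP+ (SE 0.36, by replicate 3.02 and 3.40, limma adjusted p = 0.0853) and 1.27 in GFP- cells (SE 0.36, by replicate 0.93 and 1.62, limma adjusted p = 0.419; 0.84 without replicate 2 of GFP- E7.5). The GFP+ minus GFP- difference was -1.08 at E6.5 (SE 0.36, by replicate -0.94 and -1.21, limma adjusted p = 0.595) and 0.86 at E7.5 (SE 0.36, by replicate 1.15 and 0.57). The interaction of 1.94 (SE 0.51, unadjusted p = 0.00611 in limma) did not pass (limma adjusted p = 1.00). It was 1.30 and -0.46 on the dimmer probe sets, so the turn between fractions was not seen on all of them. There the GFP+ minus GFP- difference was -0.41 and 0.32 at E6.5, and 0.90 and -0.15 at E7.5.

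Col26a1, whose product is a secreted collagen first found in testis and ovary, lay below the mark on all E6.5 arrays and above it on all E7.5 arrays. At E6.5 it lay at 3.55 and 2.73 in GFP- and 3.87 and 2.92 in GFP+ cells. At E7.5 it lay at 4.63 and 5.13 in GFP- and 5.69 and 6.47 in GFP+ cells, which did not overlap. The stage difference was 2.69 in GFP+ (SE 0.48, by replicate 1.83 and 3.55, limma adjusted p = 0.274) and 1.74 in GFP- cells (SE 0.48, by replicate 1.09 and 2.40, limma adjusted p = 0.414). Over both fractions it was 2.22 (SE 0.34, limma adjusted p = 0.0702). The sizes are uncertain since E6.5 lay below the mark. At E7.5 GFP+ cells were higher by 1.199 (SE 0.48, by replicate 1.06 and 1.34, limma adjusted p = 1.00). Of the other membrane-spanning genes, Col13a1 lay between 3.90 and 6.91, Col17a1 between 3.20 and 5.12 and Col25a1 between 4.12 and 4.96, and no groups of these separated by 1 or more. The anchoring fibril gene Col7a1, whose product ties skin basement membrane to the dermis, lay between 4.202 and 5.12, and its largest group difference was -0.24.

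**Figure D3:**
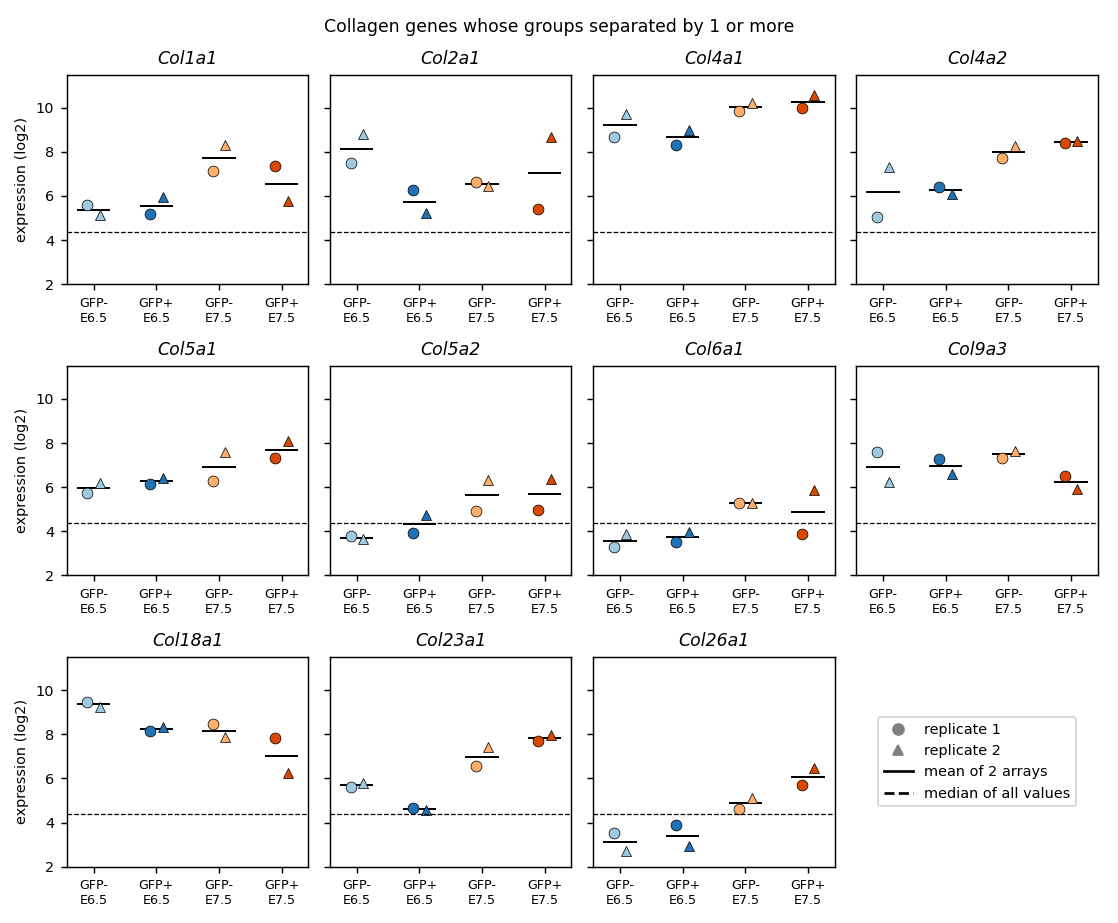
Log2 expression on each array (circle for replicate 1, triangle for replicate 2) and mean of the 2 arrays (bar) of the 11 collagen genes with a group above the mark and groups that separated by 1 or more. The dashed line is the median of all deposited values, 4.38. Col23a1 and Col26a1 are higher at E7.5 in both fractions, and Col18a1 is highest in GFP- cells at E6.5.

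The fraction comparison asked which collagen genes differed between Mesp1 reporter cells and GFP- cells of the same stage. Col18a1, which encodes a heparan sulfate-bearing basement membrane collagen and the source of endostatin, was lower in GFP+ cells at both stages on the probe set used. At E6.5 the genes lower in GFP+ cells, with arrays that did not overlap and means at least 1 apart, were Col2a1, Col18a1 and Col23a1 (3 of 42, 7.14%, against 2.45% of all genes). None was higher by this measure on the probe sets used (0 of 42, against 1.89% of all genes). The dimmer probe set of Col27a1 did meet it, with a difference of 1.53. For Col23a1 the 2 dimmer probe sets gave -0.41 and 0.32 at E6.5, so its lower value was not seen on all of them. At E7.5 Col9a3 and Col18a1 were lower (2 of 42, 4.76%, against 1.11%) and Col26a1 was higher (1 of 42, 2.38%, against 0.883%). Col18a1 was lower at both stages (1 of 42, against 0.357% of all genes), and 0 of 42 were higher at both (0.152% of all genes). The median difference over the 42 genes was 0.04 at E6.5 and -0.01 at E7.5, against -0.003 and -0.02 over all genes. Limma called 0 of the 21 tested collagen genes at either stage (0.0769% of all genes at E6.5 and 0% at E7.5). At an unadjusted p under 0.05 it had 0 higher and 2 lower at E6.5, against 2.63% and 3.1% of all genes. At E7.5 it had 2 higher and 1 lower, against 0.999% and 1.41%.

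These counts also moved with single arrays. At E6.5 there were 5 lower without replicate 1 of GFP- E6.5 (5% of all genes without that array), and 2 higher without replicate 1 of GFP+ E6.5 (3.87%) or replicate 2 of GFP- E6.5 (5.24%). At E7.5 there were 5 higher without replicate 1 of GFP+ E7.5 (4.47%), 4 without replicate 2 of GFP- E7.5 (3.02%), and 0 without replicate 2 of GFP+ E7.5 (1.51%) or replicate 1 of GFP- E7.5 (2.52%). With the stages averaged limma called 0 collagen genes (0.00854% of all genes tested). At an unadjusted p under 0.05 it then had 1 higher, Col27a1 (0.61, SE 0.23), and 1 lower, Col18a1, against 2.37% and 3.09% of all genes. For the interaction of fraction and stage limma called 0 (0% of all genes), with Col23a1 higher and 0 lower at an unadjusted p under 0.05 (1.33% and 1.38% of all genes).

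Col18a1 lay at 9.47 and 9.24 in GFP- and 8.15 and 8.32 in GFP+ cells at E6.5, and at 8.45 and 7.88 in GFP- and 7.82 and 6.24 in GFP+ cells at E7.5. The highest group was GFP- at E6.5 and the lowest array was GFP+ E7.5 replicate 2. The GFP+ minus GFP- difference was -1.12 at E6.5 (SE 0.52, by replicate -1.32 and -0.92, limma adjusted p = 0.961) and -1.13 at E7.5 (SE 0.52, by replicate -0.63 and -1.63; -0.34 without replicate 2 of GFP+ E7.5 and -1.92 without replicate 1 of GFP+ E7.5). Between stages it was -1.19 in GFP- (SE 0.52, by replicate -1.02 and -1.37, limma adjusted p = 0.785) and -1.20 in GFP+ cells (SE 0.52, by replicate -0.33 and -2.07; -0.41 without replicate 2 of GFP+ E7.5 and -1.99 without replicate 1 of GFP+ E7.5). Its other probe set was about as bright (mean 8.12, against 8.20) and gave -1.86 and -0.29 for the fractions at E6.5 and E7.5, and -1.56 and 0.01 for the stages in GFP- and GFP+ cells. The lower value of GFP+ cells at E6.5 and the lower E7.5 value of GFP- cells were therefore seen on both probe sets, and the lower value of GFP+ cells at E7.5 was large on 1 of them. The lower E7.5 value in GFP+ cells was seen on 1 of them only.

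Markers of visceral endoderm, the outer epithelium on the same basement membrane, moved with the GFP- E6.5 group. All 12 listed markers lay above the mark in at least 1 group. Their mean level was 6.15 and 7.99 in GFP- and 4.23 and 4.70 in GFP+ cells at E6.5, and 4.68 and 6.12 in GFP- and 4.98 and 4.77 in GFP+ cells at E7.5. At E6.5 10 of the 12 were lower in GFP+ cells with arrays apart by the same measure. Col18a1, Col2a1 and Col23a1 were too, on the probe sets used. So were 3 of 6 extraembryonic ectoderm, 3 of 6 epiblast and 2 of 5 definitive endoderm markers. At E7.5 none of the 12 visceral endoderm markers separated between fractions this way, and the replicates split. Their mean was 4.68 in GFP- against 4.98 in GFP+ cells in replicate 1, and 6.12 against 4.77 in replicate 2. On the probe set used Col18a1 was then lower in GFP+ cells, more so within replicate 2 than within replicate 1. Col23a1 was higher by 0.86 on the probe set used. Extraembryonic ectoderm markers had a higher mean on the GFP- arrays at both stages. It was 5.22 and 6.15 in GFP- against 4.22 and 4.46 in GFP+ cells at E6.5, and 6.82 and 5.31 against 5.14 and 5.02 at E7.5. All 6 of these lay above the mark in at least 1 group, and Elf5 reached 6.60 in GFP- E7.5 replicate 1 against 3.45 in replicate 2. Esx1 went the other way, at 6.69 in GFP+ E7.5 replicate 1 against 3.45 in GFP- E7.5 replicate 1. Tfap2c differed by -0.01 between fractions at E6.5. Epiblast markers had the higher mean on GFP- arrays too, at 9.68 and 9.71 against 7.70 and 8.14 at E6.5, and 8.43 and 8.25 against 7.06 and 6.67 at E7.5, and the lower mean at E7.5 in both fractions. All 6 lay above the mark in at least 1 group, Sox2 only in the GFP- groups. Definitive endoderm markers, 4 of 5 above the mark in at least 1 group, had means of 5.51 and 7.01 in GFP- against 4.56 and 4.60 in GFP+ cells at E6.5, and 6.48 and 6.17 against 6.40 and 6.13 at E7.5. Of 5 primitive erythroid markers 2 lay above the mark in a group, with means of 4.63 and 4.32 in GFP- cells at E7.5 and 3.48 to 3.72 on all other arrays. Of 6 endothelial markers 2 did, with means between 3.82 and 4.80. The part of these cells in the collagen values was not tested. Of 8 markers of decidual and maternal stroma, 3 lay above the mark in at least 1 group and none separated in any of the 4 comparisons, with list means between 3.82 and 4.15.

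**Figure D4:**
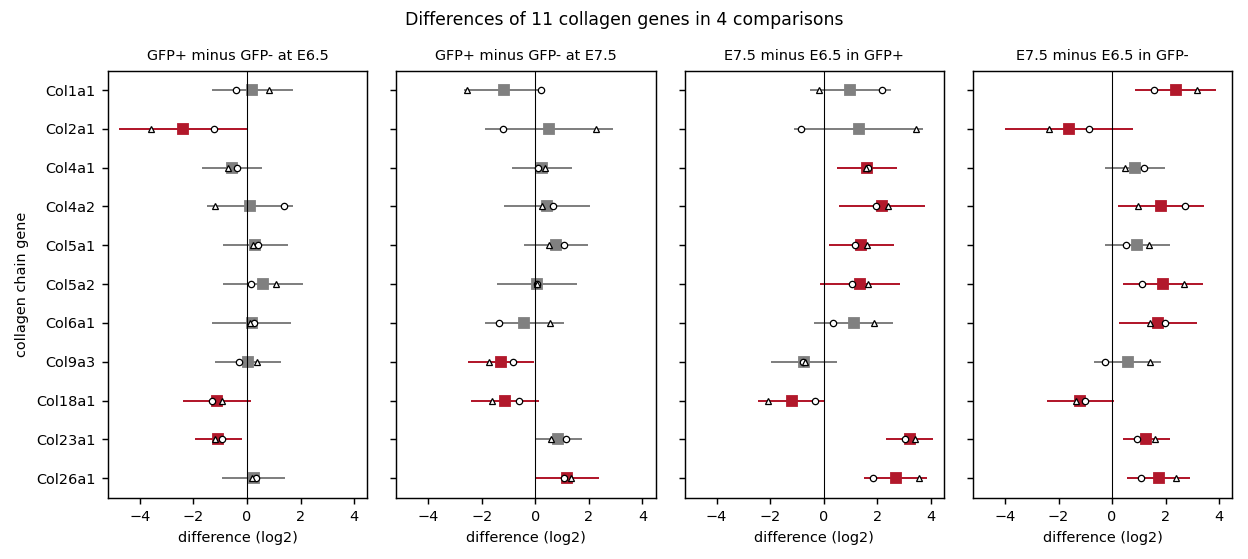
Difference (log2) of the 11 collagen genes in each of the 4 comparisons: squares are the difference of means with the 95% interval of the limma fit, open circles and triangles the differences within replicates 1 and 2. Red marks groups whose arrays do not overlap and whose means differ by 1 or more. Red squares lie mostly to the right of 0 in both stage comparisons and mostly to the left between fractions.

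Genes that modify, export, process, bind or degrade collagen were taken as a list of 54 measured genes, of which 41 entered the test. Limma called none of them in the fraction comparison of either stage or the stage comparison of either fraction (lowest adjusted p = 0.293, for Serpinh1 between stages in GFP- cells). At an unadjusted p under 0.05 limma had 1 of 41 higher and 0 lower between fractions at E6.5 (2.63% and 3.1% of all genes), and 0 higher and 1 lower at E7.5 (0.999% and 1.41%). Between stages it had 2 higher and 0 lower in GFP+ cells (2.35% and 1.5%), and 3 higher and 0 lower in GFP- cells (3.45% and 3.03%). With non-overlapping arrays and means at least 1 apart, 4 of 54 were higher at E7.5 in GFP- cells (P3h2, Serpinh1, Bmp1 and Timp2, against 2.47% of all genes) and 1 in GFP+ cells (Bmp1, against 1.9%). None was lower (2.06% and 1.12% of all genes). By this measure 3 were higher (Bmp1, Itgb1 and Mmp14, against 1.89%) and 1 lower (Ddr1, against 2.45%) in GFP+ cells at E6.5. The Bmp1 difference was 1.88 and 0.19 by replicate. At E7.5 there were 0 higher (0.883% of all genes) and 2 lower (P4ha2 and Timp2, against 1.11%). By replicate P4ha2 differed by -0.51 and -1.73, and Timp2 by -0.06 and -2.50. The median difference of the list was 0.04 and -0.02 between fractions at E6.5 and E7.5, and 0.08 and 0.25 between stages in GFP+ and GFP- cells.

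Of the prolyl hydroxylases, P3h2, which modifies type IV collagen, was higher at E7.5 in GFP- cells by 2.23 (SE 0.61, by replicate 2.27 and 2.19), and P4ha2 by 1.21 (SE 0.74). The lysyl hydroxylase genes Plod1 (0.90, SE 0.44) and Plod2 (0.89, SE 0.54) followed with wider spread, from -0.06 to 1.83 by replicate. Serpinh1, the collagen chaperone Hsp47, was higher by 1.31 (SE 0.31, by replicate 1.34 and 1.28), while Creb3l1, a regulator of secretory genes, was at 0.52 between fractions at E7.5 (SE 0.33). Bmp1, which cuts the propeptide of fibrillar collagens, was higher by 2.20 (SE 0.59, by replicate 2.60 and 1.80) in GFP- cells. The procollagen protease gene Adamts3 was near background. The largest differences among cross-linking enzyme genes were under 1 in size. Loxl4 differed by -0.82 between fractions at E7.5 (SE 0.29, by replicate -0.65 and -0.98). Loxl1 differed by 0.76 between stages in GFP+ cells (SE 0.44, by replicate 0.24 and 1.27).

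Among collagen receptor genes at E6.5, the GFP+ minus GFP- difference of Ddr1, a receptor tyrosine kinase of epithelia, was -1.09 (SE 0.54, by replicate -1.52 and -0.66). That of Itgb1, the beta chain of collagen-binding integrins, was 1.01 (SE 0.43, by replicate 1.34 and 0.68). Hspg2, the basement membrane proteoglycan perlecan, was at 1.03 between stages in GFP- cells but split by replicate (SE 0.53, by replicate -0.18 and 2.24). Bgn, the small proteoglycan biglycan, was at 0.75 between fractions at E7.5 (SE 0.38, by replicate 0.28 and 1.22). Mmp14, a membrane-bound collagenase, was higher in GFP+ cells at E6.5 by 1.05 (SE 0.35, by replicate 1.42 and 0.68, limma adjusted p = 0.594). Timp2, which encodes an inhibitor of such enzymes, was higher at E7.5 in GFP- cells by 1.87 (SE 0.89, by replicate 2.72 and 1.03).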

How the data were processed

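The authors deposited log2 expression values per probe set, made with RMA per the submitters' processing notes, from an Affymetrix mouse PM array. Neither its version nor a build was stated there. Symbols came from the platform annotation, where 28898 probe sets had 1 symbol. A gene entered the test with 2 or more arrays over the median of all values. All 8 arrays were fitted with limma 3.58.1 in R 4.3.3 (lmFit, eBayes), 1 mean per group, unpaired (residual degrees of freedom 4, prior 3.21). Adjustment was by Benjamini-Hochberg over 11706 genes. The script was tested on simulated data. The members, gene lists and tests were chosen with earlier results of these data known. Genes were named in full where they passed limma, or where both arrays of a group lay above the mark and groups separated by 1 or more within a stage or fraction. Other chains of the same types are given by range. Pathway genes were named as the 2 with the largest difference in each role. Alternatives covered the filter, the probe sets per gene, quantile normalization, the arrays fitted, the replicate block and each array left out.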

Additional observations from a re-analysis of the deposited data

How the results depend on the processing

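The number of collagen genes that limma called was 0 for both fraction comparisons, both stage comparisons within a fraction, the fractions averaged over stages and the interaction under every alternative run. For the stages averaged over fractions it was 1, against 0 with the mean of all probe sets, 2 with quantile normalization over all arrays (Col23a1 and Col26a1) and 0 to 1 without 1 array. With the replicate block it was 2 (Col4a1 and Col23a1), and all genes called went from 30 to 94, while no other count of collagen genes called changed under that block. Replicate numbers are not stated to pair embryos. Over 6 pairs of groups, deviations from the group mean correlated at 0.401 to 0.532 between arrays of 1 number, with 2 numbers only. Counts of genes with separate groups, tried after the values were seen, were with the mean of all probe sets 1 higher and 2 lower between fractions at E6.5, 0 lower at E7.5, and 0 lower between stages in GFP+ cells. Without 1 array they ranged from 0 to 2 higher and 2 to 5 lower between fractions at E6.5, 0 to 5 higher at E7.5, 6 to 9 higher and 0 to 2 lower between stages in GFP+ cells, and 6 to 10 higher and 1 to 2 lower in GFP- cells. The median collagen difference between stages in GFP+ cells was 0.10 with quantile normalization and 0.054 to 0.15 without 1 array. Without 1 array the median was 0.059 to 0.14 between stages over both fractions and -0.062 to -0.0024 between fractions over both stages. A difference between groups whose arrays did not overlap cannot turn when 1 array is left out. Changing the filter, fitting only the arrays compared or adding the replicate block does not alter a difference of group means. Of 38 differences of single collagen genes recomputed, 35 kept their direction under each alternative run, a count that was in part fixed by this. The other 3, between fractions, turned: Col4a2 at E6.5 (-0.010 with quantile normalization, -1.03 to 1.23 without 1 array), Col9a3 at E6.5 (-0.65 to 0.73 without 1 array) and Col4a1 at E7.5 (-0.064 to 0.54 without 1 array). Values below the mark limit the sizes for Col5a2, Col6a1 and Col26a1.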

Other observations

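For 17 of the 42 collagen genes (40.5%, against 34.1% of all genes) the 4 replicate 1 arrays and the 4 replicate 2 arrays did not overlap, whatever the fraction or stage. Col8a1, a short-chain collagen of blood vessels and the eye, lay between 5.002 and 5.20 on the replicate 1 arrays and between 6.002 and 6.21 on the replicate 2 arrays, and the replicate number held 97.3% of its sum of squares. Col13a1, a membrane-spanning collagen of cell adhesions, lay between 3.90 and 4.89 and between 5.24 and 6.91. Within each replicate number its lowest array was GFP- E6.5 and its highest GFP+ E7.5. Col25a1, a membrane-spanning collagen of developing muscle and nerve, lay between 4.12 and 4.23 and between 4.73 and 4.96. For Col23a1 and Col26a1 the replicate number held 1.53% and 0.237%, and the stage 81.1% and 78.4%.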
